A study of Homo sapiens with 4 samples.

Results

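Integrins, laminins and the proteins of the hemidesmosome were examined for nearby p63 binding in HSC-5, a line of human skin squamous carcinoma cells. The set held 43 protein-coding genes of the 19974 on chromosomes 1 to 22 and X in RefSeq GRCh38. It was listed by name and comprised 10 epithelial integrin subunits, 2 laminin-332 chains, 6 hemidesmosome and anchorage genes, 8 other integrins, 8 leukocyte integrins and 9 other laminins. The study had 2 p63 immunoprecipitates (IPs), made with the antibody D9L7L, and 2 input libraries without antibody. All 4 came from HSC-5 cells, labelled as skin, and the labels give no treatment, second genotype or time. HSC-5 is a single tumour line, and since peak lists hold no expression its identity was not checked against marker genes. The labels do not say whether replicates came from separate cultures.

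p63, a p53-family transcription factor, is required for the basal layer of skin and other stratified epithelia. Basal keratinocytes are held to the basement membrane by integrins, heterodimeric receptors of an alpha and a beta subunit. In the hemidesmosome, ITGA6 and ITGB4 bind laminin-332 outside the cell, while plectin (PLEC) and dystonin (DST) link them to keratin filaments inside it. Collagen XVII (COL17A1) and the tetraspanin CD151 are further parts of the hemidesmosome, and collagen VII (COL7A1) forms the anchoring fibrils below it. Loss of many of these proteins causes blistering disease. p63 is known from earlier work to support this adhesion programme in epithelial cells.

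Only IP replicate 1 could be placed on genes. It had 12687447 IP tags after duplicate removal and 4077 peaks, of which 3965 lay on the chromosomes used. Replicate 2 kept 868393 IP tags, 6.84% of that depth, and 31 of its 2934 peaks lay beyond the last GRCh38 gene of a chromosome, so it was not read as GRCh38 and its build was not settled. Groups of genes are therefore described by counts from 1 library with no test, and differences between groups were not tested.

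Hemidesmosome and anchorage genes and epithelial integrins had peaks at a higher share of their members than laminins and leukocyte integrins did. COL7A1 and FERMT1 are counted in the first of these groups, and ITGA6 and ITGB4 as epithelial integrins. With a summit in the span or within 50 kb counted, 15 of the 43 genes (34.9%) had a peak, against 19.9% of all protein-coding genes. The 43 are longer genes, with a median span of 72.9 kb against 24.2 kb. The group shares were 5 of 6 hemidesmosome and anchorage genes, 6 of 10 epithelial integrins, 2 of 8 other integrins, 1 of 8 leukocyte integrins, 1 of 9 other laminins and 0 of 2 laminin-332 chains. Of the 15 genes, 9 had 1 peak and 6 had more than 1.

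**Figure D1:**
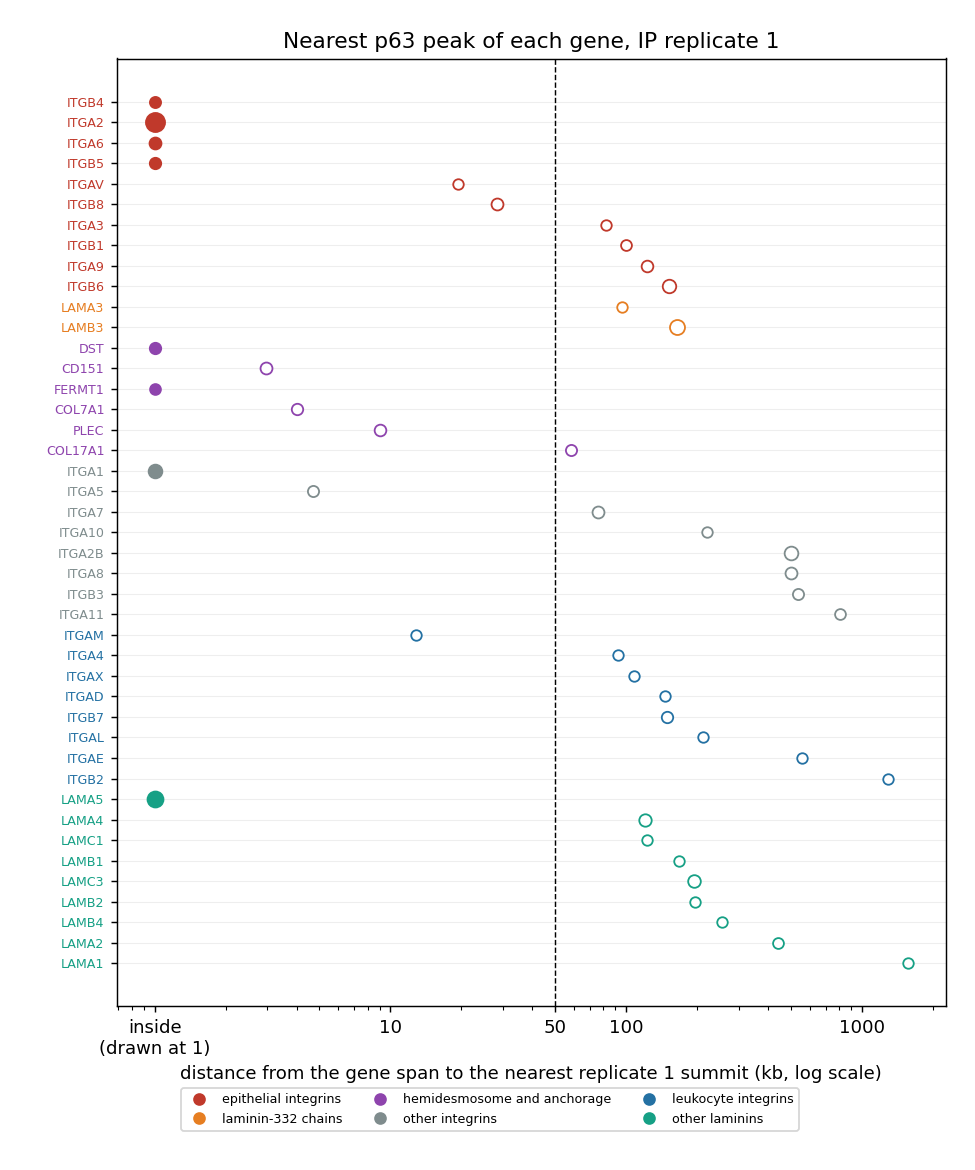
Distance in kb (log scale) from each gene's span to its nearest replicate 1 summit, with filled points for summits inside the span, open points for summits outside it, point size growing with tags and a dashed line at 50 kb. The points of 5 of the 6 hemidesmosome and anchorage genes and 6 of the 10 epithelial integrins lie left of the line, against 1 of 8 leukocyte integrins and 1 of 9 other laminins.

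Epithelial integrins and laminin-332 chains together had a peak at 6 of 12 genes (50.0%), against 2 of 17 leukocyte integrins and other laminins (11.8%) and 19.9% of all protein-coding genes. All 6 with a peak were integrins. With summits inside the span only, 4 of 12 (33.3%) stood against 1 of 17 (5.88%) and a background of 7.12%. At 10 kb the counts were again 4 of 12 and 1 of 17, with a background of 10.2%. At 100 kb they were 9 of 12 (75.0%) and 3 of 17 (17.6%), with a background of 30.0%. Counting each summit only for its nearest protein-coding gene gave 5 of 12 (41.7%) and 2 of 17 (11.8%), with a background of 10.5%. The epithelial share was above the comparison share in each of these settings, but most counts are small and single genes move them. The comparison share was below that of all protein-coding genes in the 4 distance windows and above it by nearest gene.

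**Figure D2:**
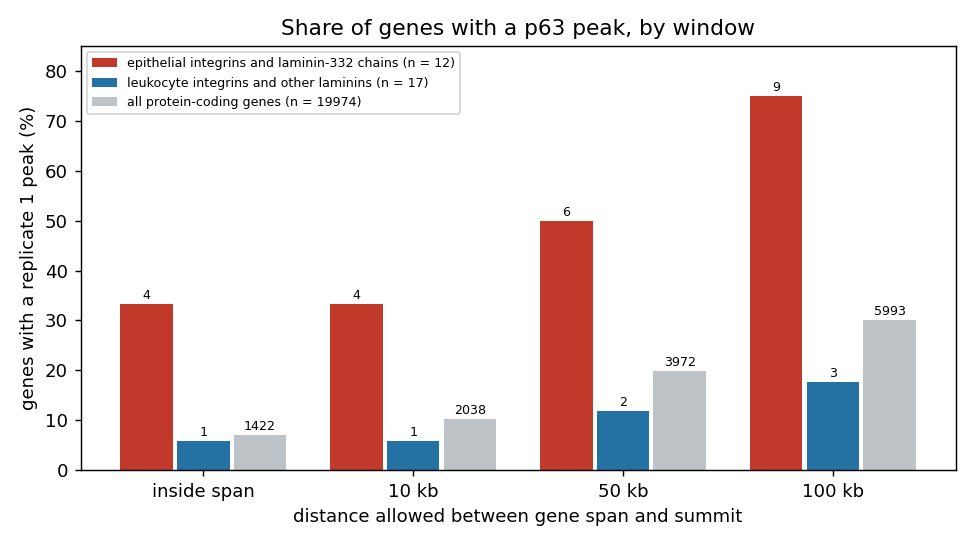
Share of genes in percent with a replicate 1 summit inside the span or within 10, 50 or 100 kb of it, with the number of genes above each bar. Epithelial integrins and laminin-332 chains reach 33.3, 33.3, 50.0 and 75.0%, against 5.88, 5.88, 11.8 and 17.6% for leukocyte integrins and other laminins.

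The median span was 88.4 kb for epithelial integrins and laminin-332 chains, 79.4 kb for leukocyte integrins and other laminins, and 24.2 kb for all protein-coding genes. Within these groups it was 88.4 kb for epithelial integrins, 46.7 kb for leukocyte integrins and 119.0 kb for other laminins. Among genes of 50 to 150 kb, 5 of 7 epithelial members had a peak, against 2 of 10 in the comparison group and 23.9% of all genes of that length. Below 50 kb the counts were 1 of 3 and 0 of 5, with a background of 16.7%, and above 150 kb they were 0 of 2 and 0 of 2, with a background of 32.8%. Per megabase of searched window, the epithelial group had 3.84 peaks, the comparison group 0.847 and all protein-coding genes 1.50.

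**Figure D3:**
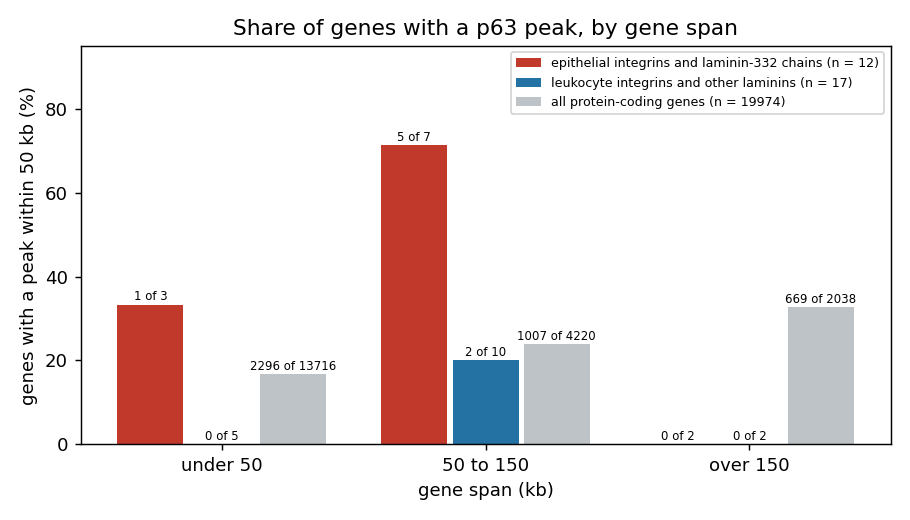
Share of genes in percent with a replicate 1 summit within 50 kb, by gene span in kb, with counts above the bars. At spans of 50 to 150 kb 5 of 7 genes of the epithelial group have a peak, against 2 of 10 of the comparison group, and neither group has a peak at a gene above 150 kb.

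The 43 genes had 24 distinct peaks in their windows, 12 inside a member and 12 outside every member. Of the 12 outside, 9 lay inside another protein-coding gene and 3 lay in no such gene, and only for those 3 was a member the nearest gene. The 24 peaks had medians of 11 tags, 262.5 bp of width and 15.57 in fold enrichment, against 10 tags, 245 bp and 13.43 over all placed peaks. Tags are the authors' unnormalised reads in a peak, and the fold is the IP over the scaled local control as their caller gave it. Of the 24, 17 held 8 to 13 tags, close to the lowest count of 8 in the list, and 5 (20.8%) had a score of 100 or more, against 15.4% of all placed peaks. The score is the caller's p-value on a scale of minus 10 log10. By gene, 5 of the 43 (11.6%) had a peak of such a score within 50 kb, namely ITGA2, ITGB4, ITGA1, LAMA5 and CD151, against 4.63% of all protein-coding genes. Only ITGA2 and LAMA5 held one inside the gene. The one counted for ITGA1 lay inside ITGA2, and those of ITGB4 and CD151 lay inside SAP30BP and PIDD1.

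None of the promoter windows on hand was overlapped by a peak, and 3 of their listed starts lay closest to a summit. ITGB4, PLEC, CD151 and FERMT1 had peaks but no listed start, so they were left out of this ranking. The FERMT1 summit was at 6122203, in a span that ends at 6123030. The inside ITGB4 summit was at 75723423, in a span that starts at 75721459. Strand was not used for these genes, so such summits may lie closer to a start than those of COL7A1 and DST. RefSeq promoter windows, 250 bases before to 50 after a start in GRCh38.p14, were on hand for 29 of the 43 genes. They are shown for LAMA5, with a summit 714 bp inside the gene from the start, for COL7A1, with one 4027 bp before it, and for an internal start of DST, with one 10183 bp before it. DST is known to encode its skin isoform, BP230, from an internal start, although the promoter table names no isoform. Capitals mark CATG, a core of the p53-family recognition sequence, which is its own reverse complement.
LAMA5 chr20:62367263-62367562, minus strand: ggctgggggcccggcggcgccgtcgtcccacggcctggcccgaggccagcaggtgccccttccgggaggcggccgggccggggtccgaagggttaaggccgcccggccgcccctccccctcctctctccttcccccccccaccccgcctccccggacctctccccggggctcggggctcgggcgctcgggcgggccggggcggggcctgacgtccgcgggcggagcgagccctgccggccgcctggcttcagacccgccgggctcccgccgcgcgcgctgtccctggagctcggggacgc
COL7A1 chr3:48595280-48595579, minus strand: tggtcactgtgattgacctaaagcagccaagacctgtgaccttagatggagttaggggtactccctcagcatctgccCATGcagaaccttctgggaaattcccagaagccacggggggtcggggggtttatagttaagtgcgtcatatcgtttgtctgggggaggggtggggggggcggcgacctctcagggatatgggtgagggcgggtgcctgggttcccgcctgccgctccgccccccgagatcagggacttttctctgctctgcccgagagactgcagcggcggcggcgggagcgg
DST chr6:56642840-56643139, minus strand: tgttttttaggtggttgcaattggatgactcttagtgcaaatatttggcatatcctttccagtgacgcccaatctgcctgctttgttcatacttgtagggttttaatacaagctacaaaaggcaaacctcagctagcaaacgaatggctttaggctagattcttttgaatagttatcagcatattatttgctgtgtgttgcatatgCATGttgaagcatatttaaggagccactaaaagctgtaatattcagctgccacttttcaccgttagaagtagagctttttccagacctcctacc

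CATG stood once in the COL7A1 and DST windows and not in that of LAMA5. It occurred in 19 of 38 member promoter windows and in 54.9% of all 35116 windows in the table. The p53-family tandem core, in which a pair of such cores with A or T in the middle lie 6 bases apart on either strand, occurred in 1 of the 38, that of ITGA2B, and in 4.79% of all windows. ITGA2B, the platelet fibrinogen receptor subunit, had no summit within 499.7 kb. These matches describe the letters of the windows only, and the sequence under the peaks was not analysed here.

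**Figure D4:**
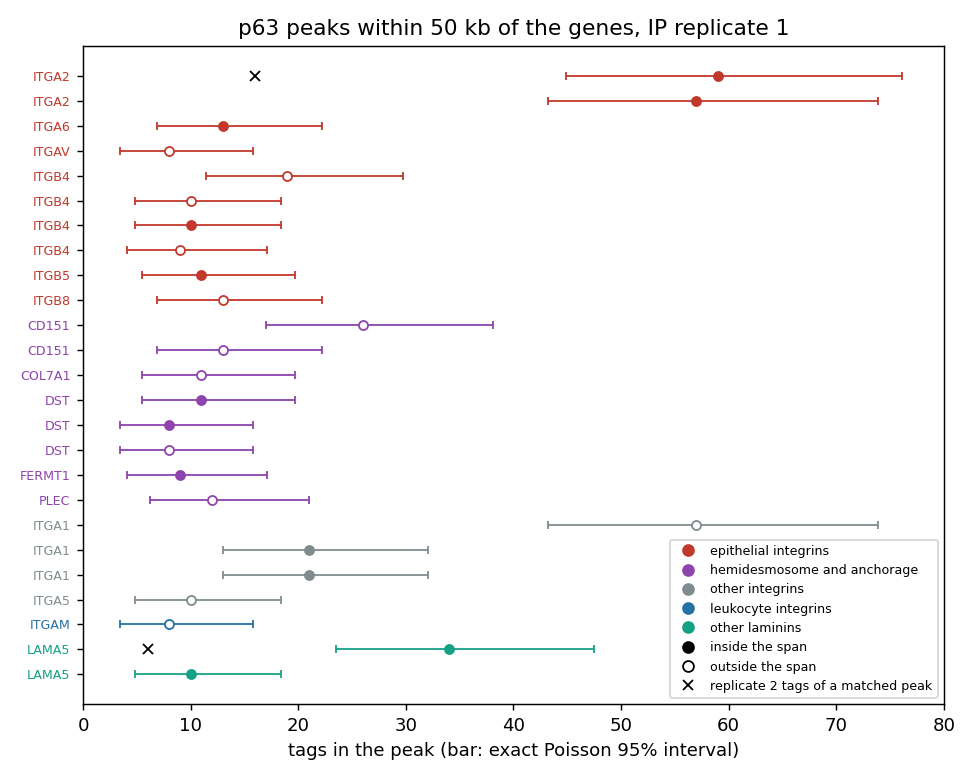
Tags in each replicate 1 peak within 50 kb of a gene, with exact Poisson 95% intervals for counting error, filled for summits inside the span and open for those outside. Crosses give the replicate 2 tags of the 2 peaks matched between the lists. The ITGA2 peaks (57 and 59 tags) and the LAMA5 peak (34 tags) stand above most others at 8 to 13 tags, and the 57-tag peak is drawn for both ITGA2 and ITGA1.

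ITGA2 held the peaks with the most tags of the set, although CD151, ITGB4 and LAMA5 had peaks of higher fold. It encodes the collagen-binding subunit that pairs with ITGB1 on basal keratinocytes. The stronger peak (chromosome 5, 53027968 to 53028482) had 59 tags with an exact Poisson 95% interval of 44.9 to 76.1, over 515 bp, and its fold was 19.27. It lay 38.8 kb downstream of the start and ranked 67th by score among all placed peaks. A second ITGA2 peak (53006905 to 53007730), 18.1 kb downstream of the start, had 57 tags (43.2 to 73.9) over 826 bp, and its fold was 9.25. By tags the ITGA2 peaks overlapped in their intervals, but the fold of the first was higher. Poisson intervals here and below cover counting error only.

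The neighbouring integrin ITGA1, a collagen and laminin receptor subunit better known from mesenchymal cells, lies 30.1 kb from ITGA2. It held 2 peaks of 21 tags each (13.0 to 32.1), with folds of 7.43 and 6.51, 13.1 and 128.8 kb downstream of its start. The first of these also lies within PELO, a gene nested in ITGA1. The remaining peak in the ITGA1 window, 48.3 kb beyond the gene, is the 57-tag peak inside ITGA2, counted for both genes. The ITGA1 folds lay below the lower quartile of 11.22 for the 714 peaks of 15 to 30 tags, whose median was 18.42. Chromosome 5 as a whole had 2.41 peaks per megabase, against 1.31 over all chromosomes. From 1 Mb below ITGA1 to 1 Mb above ITGA2 there were 9 peaks, 3.90 per megabase, with a median fold of 9.28. From 5 Mb below to 5 Mb above there were 142, 13.8 per megabase, with a median fold of 7.20. The part of this density in the ITGA1 and ITGA2 counts was not tested.

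**Figure D5:**
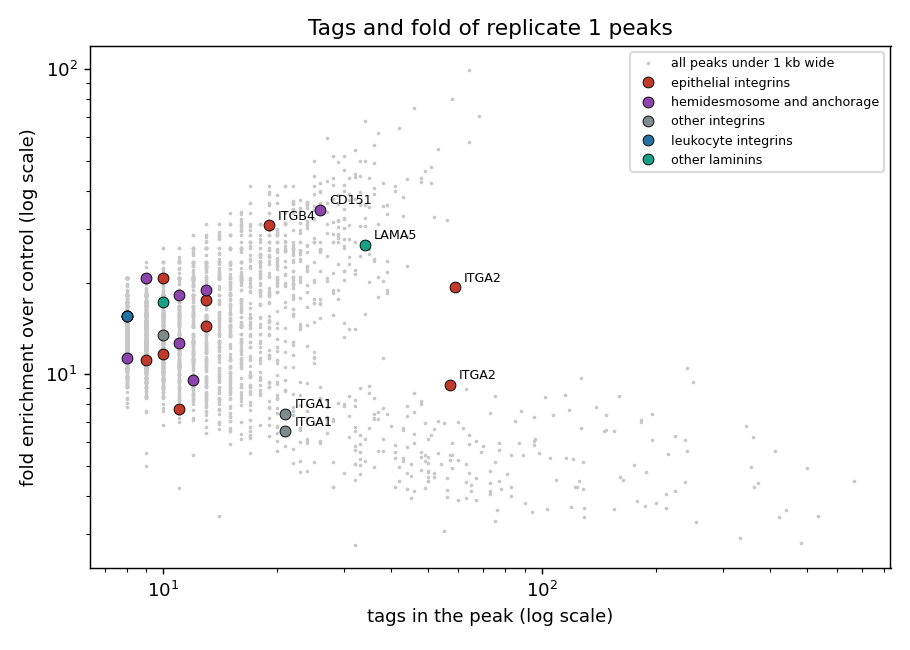
Fold enrichment over control against tags (both log scales) for all replicate 1 peaks under 1 kb wide in grey, with the peaks of the gene set in colour. The CD151, ITGB4 and LAMA5 peaks lie in the upper arm with folds of 34.65, 30.82 and 26.61, while both ITGA1 peaks (7.43 and 6.51) lie in the lower arm.

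The hemidesmosome integrins ITGA6 and ITGB4 both held peaks. ITGA6 had 1, inside the gene (chromosome 2, 172442688 to 172442899), with 13 tags (6.92 to 22.2) over 212 bp and a fold of 17.50. It lay 15.2 kb downstream of the nearest of the 2 listed starts. ITGB4, the beta chain that pairs with ITGA6 in the hemidesmosome, had the most peaks of any member, with 4. Only 1 of them was inside the gene (chromosome 17, 75723256 to 75723548), and it had a fold of 11.67 on 10 tags (4.80 to 18.4). The strongest, with 19 tags (11.4 to 29.7) and a fold of 30.82, lay 36.3 kb outside within SAP30BP, which also held the 10-tag peak 20.7 kb outside. The remaining peak had 9 tags and lay 27.6 kb outside, within UNK. ITGB4 spans 36.4 kb, so its 4 peaks came to 29.3 per megabase of window, the highest density in the set.

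The other epithelial integrins had weaker peaks or none. ITGB5, the vitronectin receptor chain, held 1 of 11 tags (5.49 to 19.7) with a fold of 7.68, 45.4 kb downstream of the nearest of its 3 listed starts. ITGB8, a chain that with ITGAV activates latent TGF-beta, had 1 of 13 tags and a fold of 14.41 in no protein-coding gene, 29.4 kb upstream of its start. ITGAV, the common alpha chain of ITGB5, ITGB6 and ITGB8, had 1 of 8 tags, but 19.3 kb beyond its end inside FAM171B.

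The other 4 epithelial integrins had no peak within 50 kb. Those were ITGA3, the laminin-332 receptor chain of basal keratinocytes, with the nearest summit at 81.7 kb and 8 tags, and ITGB1, the common beta chain, at 99.8 kb and 9 tags. ITGA9, a tenascin receptor chain, had its nearest summit at 122.7 kb with 12 tags. ITGB6, the chain induced in healing and tumour epithelium, had its nearest at 152.4 kb with 20 tags and a fold of 29.17. No listed peak of this library had fewer than 8 tags, so weaker binding at these genes may have gone unlisted.

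Both laminin-332 chains in the set lacked a peak within 50 kb. For LAMA3 the nearest summit was 96.3 kb away with 8 tags, the lowest count in the list, on chromosome 18, which had 16 peaks in all or 0.199 per megabase. For LAMB3 the nearest was 163.7 kb away but stronger, with 28 tags, a fold of 31.57 and a score of 217.31. No summit lay inside either gene.

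Among the other laminins, LAMA5 alone had peaks. LAMA5 encodes the alpha chain of the laminin-511 of epithelial basement membranes. Its stronger peak (chromosome 20, 62349971 to 62350350) had 34 tags (23.5 to 47.5) over 380 bp, a fold of 26.61 and rank 87 by score, 17.2 kb downstream of the start. A second had 10 tags (4.80 to 18.4) and a fold of 17.29 at 0.714 kb from the start, the nearest of any summit to a listed start of the set. The other 8 of these laminins (LAMA1, LAMA2, LAMA4, LAMB1, LAMB2, LAMB4, LAMC1 and LAMC3) had their nearest summit between 120.4 kb, at LAMA4, and 1567.7 kb, at LAMA1. None of these 8 gained a peak with the 100 kb window. LAMA2, the muscle laminin chain and the longest member at 633.4 kb, had no summit within 438.4 kb.

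Of the hemidesmosome and anchorage genes, all but COL17A1 had a peak within 50 kb. CD151, the tetraspanin that associates with laminin-binding integrins, had the one with most tags. One of its peaks had 26 tags (17.0 to 38.1) and a fold of 34.65, the highest fold of the set, but lay 28.5 kb outside within PIDD1. The other had 13 tags (6.92 to 22.2) and a fold of 18.85, 2.97 kb beyond CD151 within POLR2L. CD151 spans only 5.9 kb, and no summit lay inside it.

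COL7A1 had 1 peak of 11 tags (5.49 to 19.7) with a fold of 18.15, 4.03 kb upstream of its start and within UQCRC1. DST, at 496.8 kb the second longest member, held 2 peaks inside, of 11 and 8 tags. They lay 10.2 and 21.3 kb upstream of the nearest of its 3 listed starts, an internal one, but downstream of the other 2. Another peak of 8 tags lay 48.1 kb before the gene within BEND6. PLEC, the cytolinker, had 1 of 12 tags (6.20 to 21.0) with a fold of 9.61 in no protein-coding gene, 8.99 kb outside. FERMT1, the epithelial kindlin that activates integrins, held 1 of 9 tags (4.12 to 17.1) with a fold of 20.76 and a width of 181 bp, the narrowest of the set. COL17A1 had its nearest summit at 58.1 kb with 10 tags, just past the 50 kb limit. DST and ITGA1 lay just within it with their outermost summits. With a 10 kb window 5 of these 6 genes again had a peak, and inside the span 2 did, with backgrounds of 10.2% and 7.12%. Counted by nearest gene only, 3 of the 6 genes kept a peak, namely DST, PLEC and FERMT1.

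Leukocyte integrins had 1 peak among 8 genes, against 19.9% of all protein-coding genes. That peak lay 12.8 kb upstream of ITGAM, a complement receptor chain of myeloid cells, with 8 tags (3.45 to 15.8) and a fold of 15.57. ITGAX and ITGAD, which follow ITGAM on chromosome 16, lay 108.0 and 146.1 kb from that same summit. ITGA4 had its nearest summit at 92.5 kb, ITGB7 at 149.1 kb, ITGAL at 211.0 kb, ITGAE at 557.0 kb and ITGB2, the common beta chain of leukocytes, at 1293.1 kb. None of the leukocyte integrins held a summit inside its span.

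The remaining integrins, apart from ITGA1, were mostly far from any peak. ITGA5, the fibronectin receptor chain, had 1 of 10 tags (4.80 to 18.4) with a fold of 13.42, 4.70 kb beyond its end and within ZNF385A. ITGA7, the muscle laminin receptor chain, had its nearest summit at 76.2 kb with 13 tags. ITGA10, ITGA2B, ITGA8, ITGB3 and ITGA11 had theirs between 220.2 and 804.5 kb away. Over all 28 members without a peak in the window, the median distance to the nearest summit was 165.7 kb, and 22 of them had none within 100 kb.

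Replicate 2 could be compared with these sites only by the spacing between peaks. A pair of peaks counted as matched when its offset between the lists recurred in at least 2 nearby pairs. Of the 24 peaks, 2 were matched (8.33%), against 5.43% of all replicate 1 peaks under 1 kb wide. The stronger ITGA2 peak (59 tags in replicate 1) was matched to a replicate 2 peak of 16 tags, with 5 supporting pairs. Its surroundings, from 5 Mb below ITGA1 to 5 Mb above ITGA2, held 13.8 replicate 1 peaks per megabase, against 1.31 over all chromosomes. Dense peaks offer more pairs, and how many would match there by coincidence was not tested. The stronger LAMA5 peak (34 tags in replicate 1) was matched to a replicate 2 peak of 6 tags, with 2 supporting pairs, the fewest allowed. Chromosome 20 had 2.21 replicate 1 peaks per megabase, and coincidence was not tested there either. With 1 supporting pair, peaks at ITGA6 (13 and 7 tags), ITGAM (8 and 5) and CD151 (26 and 7) were also matched, but 13.9% of all peaks then were. An unmatched peak does not show that replicate 2 lacked it, given its depth and the 4 tags that most of its peaks held.

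Genes that act with integrins inside the cell, and genes of the basement membrane outside it, also had peaks at some of their members. Of 25 cytoplasmic integrin partners, 9 (36.0%) had a peak within 50 kb, as did 7 of 24 basement membrane genes (29.2%), against 19.9% of all protein-coding genes. Counted by nearest gene, 5 of 25 (20.0%) and 5 of 24 (20.8%) did, against 10.5%. Their median spans were 55.3 and 142 kb, against 24.2 kb for all protein-coding genes. Per megabase of searched window they had 2.48 and 1.33 peaks, against 1.50, so the basement membrane genes lay below that background. The cytoplasmic genes named by the tags of their strongest peak were the tensin TNS3 (22 tags, fold 25.95, inside), the crosslinker ACTN4 (19 tags, fold 36.33, 44.1 kb outside), paxillin, PXN (17 tags, fold 26.27, inside and 1.01 kb from a listed start), and the focal adhesion kinase PTK2 (15 tags, fold 16.64, 39.5 kb outside). SHARPIN, an inhibitor of integrin activation, tied with PTK2 at 15 tags and had the lower score. In the basement membrane list these were nidogen, NID1 (25 tags, fold 27.23, 19.0 kb outside), peroxidasin, PXDN (17 tags, fold 19.95, inside), perlecan, HSPG2 (12 tags, fold 14.32, 38.6 kb outside) and fibulin, FBLN1 (9 tags, fold 15.57, 33.0 kb outside). The netrin NTN4 tied with FBLN1 at 9 tags, inside its gene and with the lower score. That ACTN4 peak lay nearer to LGALS7 than to ACTN4, and that HSPG2 peak nearer to USP48 than to HSPG2. None of the 6 collagen IV genes COL4A1 to COL4A6 had a peak within 50 kb.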

How the data were processed

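ChIP-seq peak lists of 2 p63 IPs of HSC-5 cells were used, without input files. Per the file headers, the authors called peaks per sample against 1 control with MACS 1.4.2 at a p cut-off of 1e-05, keeping 1 tag per position. The headers do not name the input behind each control, on which every fold and score depends. The submitters' processing notes name FastQC, Trimmomatic, Bowtie and the build hg19. The deposited tag count is unnormalised. The deposited score is minus 10 times log10 of the p-value. The deposited fold is a ratio of IP to scaled local control, and their false discovery rate, also deposited, is in percent (at most 0.18 in replicate 1). The widths and summits deposited by the authors are in bp. The score header of replicate 1 was damaged and was read by its place.

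Duplicate removal took 42.7% of IP tags in replicate 1 and 78.8% in replicate 2. Replicate 1 held 83 peaks on 45 contigs named as in GRCh38 and none beyond the last gene of a chromosome; replicate 2 held 0 and 31. Replicate 1 was therefore read as GRCh38, despite the notes, and replicate 2 was not placed on genes. Genes came from RefSeq GRCh38.p14 and all 43 members and 49 pathway genes were found. Distances run from summit to gene span; exons and introns were not told apart.

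Lists were matched by spacing with a tolerance of 100 bp, support from pairs over 2000 bp and under 10000000 bp away, offsets under 5000000 bp and widths under 1000 bp. This method was devised on these lists in earlier work. Window counts and matching were tested on simulated data with summits spread at random along each chromosome, so not on dense clusters of peaks. The members, lists and groups were chosen with earlier results of these data known. All members are named, and of each pathway list the 4 genes whose strongest peak has most tags. Python 3.11.15, pandas 2.3.3, scipy 1.17.1 and bedtools 2.31.1 were used.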

Additional observations from a re-analysis of the deposited data

How the results depend on the processing

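Windows, peak thresholds and the rule that places a peak were varied as planned. The count of members with a peak, 15 of 43, was 8 inside the span and 5 at a score of 100 or more. That of epithelial integrins and laminin-332 chains, 6 of 12, was 2 at a score of 100 or more, and 3 of 7 in the narrower list of ITGA2, ITGA3, ITGA6, ITGB1, ITGB4, LAMA3 and LAMB3. That of leukocyte integrins and other laminins, 2 of 17, was 1 inside the span, 1 within 10 kb and 1 at a score of 100 or more. Over all protein-coding genes the count of 3972 was 1422 inside the span, 2038 within 10 kb, 5993 within 100 kb, 924 at that score and 2100 by nearest gene. The share in the epithelial group was above that in the comparison group under each of these settings. At a score of 100 or more it was 16.7% against 5.88%, with a background of 4.63%. The epithelial genes there were ITGA2 and ITGB4, the latter through a peak inside SAP30BP, and the comparison gene was LAMA5. Matched member peaks, 2 of 24, numbered 5 with 1 supporting pair and 0 when only peaks with a score of 100 or more in both lists entered the matching. Both matched peaks pass that score in each list, and the filter left 25 pairs over all peaks. Smaller counts at narrower windows and stricter thresholds follow from the construction. Other settings moved each count by at most 1.5 times. No replicate could be left out, because only replicate 1 is placed on genes. No paired analysis was possible because the inputs have no values here and no test was made. Depth limits what is seen, since 17 of the 24 peaks held 8 to 13 tags.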
